A study of Mus musculus with 24 samples.

Results

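The comparison set Ifngr1-KO against sgNTC ID8 p53-/- cells that had been detached and given vehicle. Its members were chosen by their labels alone: 3 libraries of Ifngr1-KO cells and 3 of sgNTC cells, all in ultra-low attachment (ULA) wells with PBS, which makes 6 of the 24 libraries of the series. ID8 is a tumour line derived from mouse ovarian surface epithelium, and the derivative used here lacks functional p53. Both lines therefore share the p53 loss. By label they differ in being Ifngr1-KO or sgNTC control, where sgNTC stands for a non-targeting guide. ULA plates carry a coating to which cells do not stick, so the cells float singly or in clusters. Cells were harvested 48 hours after seeding and had been in vehicle for the last 24 of them, and dead cells were taken out of the ULA wells before RNA was isolated. No cells in these groups received interferon. Each genotype is 1 line, so a difference between the groups also holds whatever else differs between those lines, and the edited and unedited origin cannot be told apart from it. The libraries of a group are labelled biological replicates, and nothing more is known of their independence. The p-values reflect only the variation among libraries within groups, estimated in 1 model over all 24 libraries of the series. The adherent PBS cultures of the same lines (3 and 3 libraries) and their detached cultures with IFN-gamma (3 and 3, 100 ng/ml) are compared below only to show where the detached PBS difference departs from them. All libraries of the series also entered the filter, the scaling and the estimate of spread.

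Ifngr1 encodes the subunit that binds interferon-gamma (IFN-gamma) at the cell surface, which pairs with the chain encoded by Ifngr2 and acts through the kinases JAK1 and JAK2 on transcription factors of the STAT family. Their target genes include antiviral effectors, interferon-inducible GTPases and the machinery that loads peptides onto MHC molecules, and many of them are transcribed at a low basal level without added interferon. Loss of attachment removes integrin signals from the matrix. Epithelial cells that survive it take up nutrients and make lipids without these signals, and divide without them if they divide at all. Ovarian cancer cells live detached in ascites.

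Ifngr1 was detected in all 6 libraries. Its level was 14.5, 14.1 and 15.5 CPM (the count relative to the library total after TMM scaling) in the Ifngr1-KO libraries and 31.7, 37.4 and 37.7 CPM in the sgNTC libraries, so the groups did not overlap. The log2 change, Ifngr1-KO minus sgNTC throughout, was -1.28 (SE 0.083, adjusted p = 7.2e-15). Counts over the whole gene do not show whether the transcript still encodes a receptor, so this level does not test the edit. Ifngr2, the partner chain, stood at 80.5 ± 3.72 CPM against 71.0 ± 2.24 CPM (mean ± SD of 3 libraries, as in all pairs below, Ifngr1-KO first; log2 change 0.18, adjusted p = 0.021). The Cas9 transgene stood at 116, 103 and 92.9 CPM in Ifngr1-KO and 1957, 2177 and 1965 CPM in sgNTC libraries, a log2 change of -4.29 (SE 0.085, adjusted p = 7.2e-25). Trp53 transcripts, which both lines still produced, were at 22.6, 19.1 and 16.4 CPM and 16.0, 14.2 and 13.8 CPM (log2 change 0.40, adjusted p = 6.8e-04). Total counts ran from 38185599 to 63154942 in the 6 libraries, each mate of a pair counted, of which mitochondrial genes took 3.64% to 3.87% in the Ifngr1-KO libraries and more, 5.09% to 5.66%, in the sgNTC libraries.

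Among 14622 genes tested, 7320 differed between the detached lines at an adjusted p under 0.05, which is 50.1% of them. Genes higher in Ifngr1-KO cells numbered 3584 (24.5%) and genes lower 3736 (25.6%). Changes over 2-fold were less even, with 394 called genes higher and 1144 lower. The median log2 change over all genes was -0.02. A share of called members near 24.5% or 25.6% therefore says nothing about a gene group. The detached counts of each group below are to be read against these shares, which are mostly not repeated there. The 3 and 3 libraries did not overlap in 7098 of the called genes, and in 8745 (59.8%) of all genes tested, called or not. In bulk RNA, fewer cells with a transcript and less transcript per cell cannot be told apart.

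Among called genes of at least 10 CPM in 1 of the lines, the largest decreases were in genes that the sgNTC line expressed and the Ifngr1-KO line had at or close to 0. Gas1, a growth-arrest gene whose product is a membrane protein that binds hedgehog ligands, had no count in any of the 3 Ifngr1-KO libraries and 47.8, 55.4 and 50.4 CPM in the sgNTC libraries. Against a floor of 3 counts over the Ifngr1-KO libraries this was at least 1982-fold lower (adjusted p = 1.1e-18). Hmcn1, encoding the large matrix protein hemicentin, also had no count in the Ifngr1-KO libraries and 13.4, 14.1 and 11.7 CPM in sgNTC, at least 512-fold lower by the same floor (adjusted p = 1.5e-15). As mates are counted separately, 3 counts can come from fewer read pairs, and the floor covers counting error only. In all, 113 called genes had no count in the Ifngr1-KO group and 5 had none in the sgNTC group. The groups were not equally deep, since 3 counts stood for 0.0257 CPM over the Ifngr1-KO and 0.0191 CPM over the sgNTC libraries. Many of the 113 were below 1 CPM in sgNTC, and genes not called were left out of both counts.

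Xist, the RNA that coats the inactive X chromosome, was at 0.0522, 0.102 and 0.306 CPM in Ifngr1-KO and 320.3, 319 and 287 CPM in sgNTC libraries (log2 change -10.94, SE 0.17, adjusted p = 4.1e-27). Kdm6a, a histone demethylase gene that escapes X inactivation, was at 98.3 ± 1.33 CPM against 191 ± 3.33 CPM (log2 change -0.96, adjusted p = 4.2e-16). Of 7 X inactivation genes and X-linked markers tested, Xist and Kdm6a were lower and 1 was higher, Eif2s3x (log2 change 0.22, adjusted p = 0.002). Without sgNTC replicate 3, 2 of them were higher. The median of all 433 X-linked genes tested was 0.00 on the log2 scale. Peg3, an imprinted zinc-finger gene expressed from the paternal allele, was at 1.38, 0.766 and 0.611 CPM against 213, 217 and 200.1 CPM (log2 change -7.84, SE 0.21, adjusted p = 9.2e-17). Of 9 imprinted genes tested, 3 were lower (Peg3, Impact and Plagl1) and 1 was higher, Grb10, beside 25.6% lower and 24.5% higher of all genes. Plagl1 had no count in the Ifngr1-KO libraries and only 0.197 CPM over the sgNTC libraries. Grb10 was at 0.365, 0.664 and 0.560 CPM against 0.121, 0.0802 and 0 CPM and lost its call when sgNTC replicate 3 was left out (log2 change 2.39 then). Without Ifngr1-KO replicate 2, 2 imprinted genes were higher.

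The other genes of this kind had varied roles. In each the libraries of the groups stood apart, as the choice of the largest changes required. Dab2ip, a Ras GTPase-activating protein gene, was at 0, 0.0511 and 0 CPM against 20.9, 20.4 and 20.6 CPM. Dsg2, a desmosomal cadherin, was at 0, 0.102 and 0 CPM against 21.98, 21.96 and 22.9 CPM. Cacna2d2, a calcium channel subunit, was at 0.157, 0 and 0 CPM against 31.5, 30.2 and 26.2 CPM. These 3 genes had a count in only 1 of the 3 Ifngr1-KO libraries, as did Ptpn13, a tyrosine phosphatase gene, at 0.209, 0 and 0 CPM against 21.4, 21.8 and 19.6 CPM. Ahsg, which encodes the secreted protein fetuin-A, was at 0.473 ± 0.189 CPM against 83.6 ± 2.46 CPM, and the kinase gene Rps6ka2 at 0.137 ± 0.0584 CPM against 20.9 ± 0.664 CPM. Their log2 changes were -7.46 (adjusted p = 1.4e-26) and -7.22 (adjusted p = 1.4e-22).

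The genes most raised in Ifngr1-KO cells, again among called genes of at least 10 CPM in 1 of the lines, had varied roles. Pxdn, a peroxidase that cross-links basement membrane collagen, was at 30.3, 30.6 and 35.0 CPM in Ifngr1-KO and 1.89, 1.93 and 2.30 CPM in sgNTC libraries (log2 change 3.98, SE 0.16, adjusted p = 7.7e-21). F13a1, the catalytic subunit of the clotting transglutaminase, was at 265, 244 and 255 CPM against 26.5, 25.5 and 22.3 CPM (log2 change 3.36, SE 0.10, adjusted p = 8.3e-19). Muc4, a membrane mucin, was at 203, 201 and 197 CPM against 24.7, 31.5 and 29.1 CPM (log2 change 2.82, SE 0.12, adjusted p = 2.5e-14). In each the lowest Ifngr1-KO library stood far above the highest sgNTC library, where the choice of genes required only that they not overlap. Npnt, a basement membrane ligand of integrins, rose to 40.8 ± 1.25 CPM from 5.83 ± 0.317 CPM, and Lgr6, a receptor for R-spondins, to 11.6 ± 0.330 CPM from 1.80 ± 0.228 CPM. Fgfbp1, which carries fibroblast growth factors out of the matrix, was at 31.4 ± 3.71 CPM against 5.28 ± 0.850 CPM. Areg, encoding the EGF-receptor ligand amphiregulin, was at 38.9, 33.1 and 35.7 CPM against 6.76, 8.75 and 8.48 CPM (log2 change 2.17, SE 0.13, adjusted p = 2.6e-14). Lhfpl2 and Arhgap22, a GTPase-activating protein gene, completed the 10 largest increases so ranked with log2 changes of 2.50 and 2.25, beside the cystine transporter gene Slc7a11 described below.

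**Figure D1:**
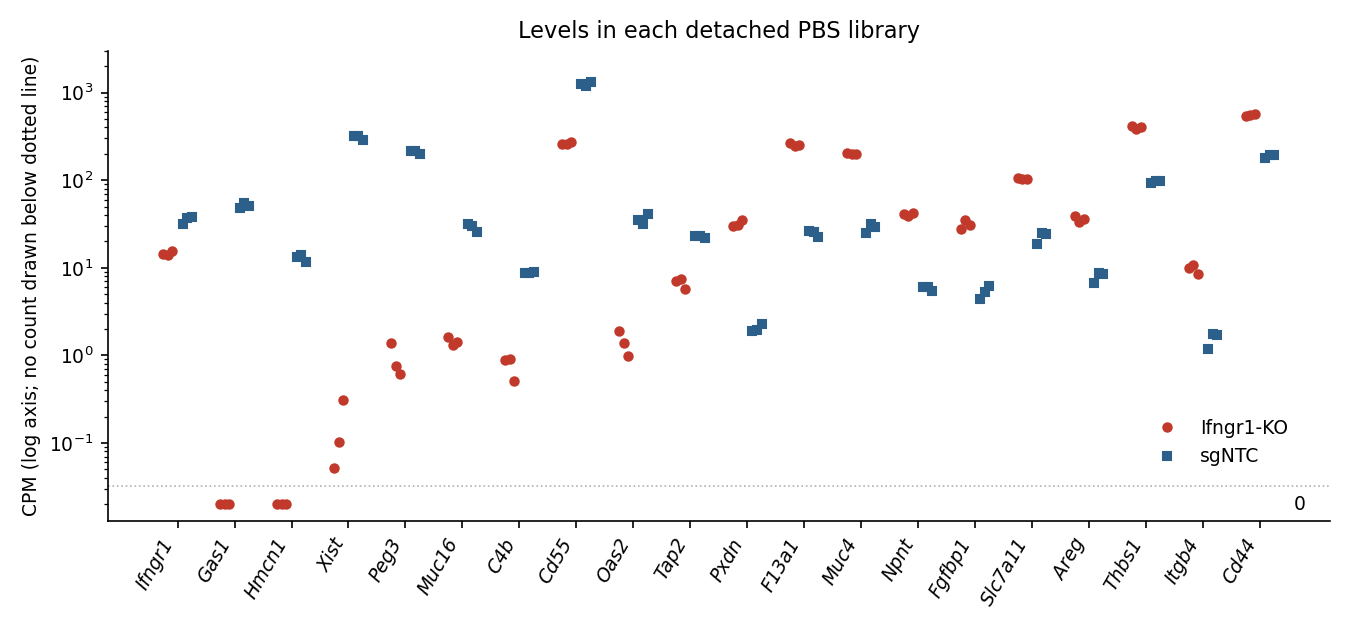
CPM of 20 genes in each detached PBS library, on a log axis, with Ifngr1-KO libraries as circles and sgNTC libraries as squares (3 each), and libraries without a count drawn below the dotted line. In each of these genes the circles and squares do not overlap, from Gas1 and Hmcn1 at 0 in Ifngr1-KO to Pxdn at 32.0 ± 2.60 against 2.04 ± 0.225 CPM. Lack of overlap was required of the genes chosen for the largest changes.

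Basal interferon-stimulated transcripts were lower in Ifngr1-KO cells although no interferon had been added. Of 42 antiviral genes tested, 33 were lower and 2 higher, with a median log2 change of -0.85 (all genes, -0.02). Oas2, which makes the 2-5A second messenger that activates RNase L, was at 1.88, 1.38 and 0.993 CPM against 35.5, 31.7 and 40.9 CPM (log2 change -4.67, SE 0.19, adjusted p = 1.3e-18). Its relatives Oas1a (0.527 ± 0.512 against 12.2 ± 3.72 CPM) and Oas3 (0.814 ± 0.0778 against 16.1 ± 5.16 CPM) were also lower. Ifit2, which binds viral RNA, was at 0.887, 0.868 and 0.993 CPM against 9.47, 6.88 and 8.44 CPM (log2 change -3.17, adjusted p = 4.7e-15), and Ifit3 at 0.120 ± 0.0315 against 3.39 ± 0.693 CPM. Rnf213, a large ubiquitin ligase gene, was the most abundant of the 4 members with the smallest p, at 246, 208 and 226 CPM against 606, 552 and 529 CPM (log2 change -1.31, adjusted p = 4.9e-15). The nuclear body gene Sp100 was at 1.89 ± 0.555 against 19.7 ± 1.38 CPM. The higher members were Samhd1 (108 ± 3.87 against 88.2 ± 0.904 CPM) and Ifi204 (61.8 ± 2.23 against 49.2 ± 1.14 CPM).

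Ifit3 and Oas1a show, in the reference, the element that interferon-activated STAT and IRF complexes are known to bind. The promoters of Ifit3 (chr19:34583279-34583578, + strand) and Oas1a (chr5:120907476-120907775, - strand) are printed because both transcripts had a mean below 1 CPM in the Ifngr1-KO line and both windows hold the core of the interferon-stimulated response element more than once. Each runs from 250 bases before to 50 bases after the RefSeq start on GRCm38.p6, 5′ to 3′ on the strand of the gene, with matches to GAAANNGAAA on either strand in capitals, and both genes were chosen after their values were seen.
Ifit3: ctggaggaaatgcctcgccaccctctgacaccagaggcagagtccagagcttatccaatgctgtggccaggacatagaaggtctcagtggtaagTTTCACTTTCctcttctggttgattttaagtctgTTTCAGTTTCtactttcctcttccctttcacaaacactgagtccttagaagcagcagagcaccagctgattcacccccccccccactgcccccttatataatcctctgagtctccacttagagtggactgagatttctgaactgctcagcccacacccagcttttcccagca
Oas1a: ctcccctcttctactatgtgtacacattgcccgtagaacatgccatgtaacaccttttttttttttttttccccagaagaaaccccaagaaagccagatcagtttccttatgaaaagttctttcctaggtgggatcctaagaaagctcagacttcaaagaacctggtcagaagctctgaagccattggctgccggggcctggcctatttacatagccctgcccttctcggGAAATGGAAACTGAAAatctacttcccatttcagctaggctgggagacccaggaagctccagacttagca
The matches in Oas1a overlap each other. The core was found in 16 of 32 antiviral genes and 9 of 10 GTPase genes that have a promoter window in the RefSeq table, and in 3.99% of all 27025 genes there, counting any window of a gene. A match is a description of the letters and not a measured binding site.

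The interferon-inducible GTPases, which attack vacuoles that hold pathogens, gave 10 lower and 0 higher of 17 tested, with a median of -1.73, which does not depend on Gbp5, a member with no count in Ifngr1-KO libraries that lies at least 15.3-fold lower by the floor. Gbp9 was at 1.93, 1.05 and 1.60 CPM in Ifngr1-KO and 10.7, 10.2 and 10.5 CPM in sgNTC libraries (log2 change -2.78, adjusted p = 1.4e-13). Gbp3 was at 1.70, 1.81 and 2.65 CPM against 10.5, 9.13 and 12.9 CPM (log2 change -2.40, adjusted p = 1.2e-07). Gbp7 and Gvin1 were low in both lines, at 0.172 ± 0.0321 against 4.66 ± 0.680 CPM and 0.0691 ± 0.0798 against 3.51 ± 0.316 CPM. Irgm1, the most abundant member, differed least among the called ones, at 53.4 ± 2.54 against 69.6 ± 6.79 CPM (log2 change -0.38, adjusted p = 0.044), and lost its call in 5 of 6 leave-one-out fits, the exception being that without sgNTC replicate 2. These families hold near-identical copies, and reads shared between them can move counts from one to another.

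Among the signalling genes, 8 of 20 were lower and 3 higher, or 5 higher without Ifngr1-KO replicate 2. Stat2 was at 22.6, 21.4 and 21.4 CPM against 48.6, 42.8 and 47.5 CPM (log2 change -1.09, adjusted p = 3.4e-10). Irf9, its partner in the type I interferon complex, was at 16.9 ± 2.80 against 28.7 ± 3.12 CPM. The repressor gene Irf2 was at 29.7, 26.8 and 31.6 CPM against 68.2, 63.4 and 64.3 CPM (log2 change -1.15, adjusted p = 5.7e-14). Usp18, which dampens interferon signalling, was at 0.891 ± 0.344 against 6.71 ± 0.739 CPM. Jak1 and Jak2, the receptor kinases, were at 223 ± 8.17 against 212 ± 1.97 CPM and 156 ± 2.62 against 132 ± 5.35 CPM, with log2 changes of 0.07 (adjusted p = 0.25) and 0.25 (adjusted p = 1.6e-04). Irf1 did not pass the test (log2 change 0.21, adjusted p = 0.064), but passed it without replicate 1 or 2 of either line (lowest adjusted p = 0.032). Stat2 and Ifngr1 lie on chromosome 10 and Irf2 on chromosome 8, whose genes had a median below 0, as given below, and the part of this in their levels was not tested.

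Of 19 genes of MHC class I presentation, 9 were lower and 3 higher. The peptide transporter Tap2 was at 7.02, 7.43 and 5.76 CPM against 22.9, 23.3 and 21.8 CPM (log2 change -1.75, SE 0.13, adjusted p = 5.1e-13), and its partner Tap1 at 1.22 ± 0.570 against 10.9 ± 0.917 CPM. The class I heavy chain gene H2-K1 was at 17.5 ± 0.476 against 33.1 ± 2.80 CPM and the light chain B2m at 184 ± 9.48 against 266 ± 37.5 CPM, with log2 changes of -0.92 (adjusted p = 3.2e-05) and -0.53 (adjusted p = 5.4e-04). The 3 higher members were the peptide-trimming enzyme Erap1 (log2 change 0.64, adjusted p = 4.2e-08) and the endoplasmic reticulum chaperones Pdia3 (0.44) and Calr (0.41), which also belong to the chaperone group below. MHC class II genes were near the limit of detection: 3 of 4 tested were lower, with Ciita, their master regulator, at 0.103 ± 0.00135 against 0.569 ± 0.0753 CPM.

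Complement genes were lower almost throughout, 10 of 11 tested, with 0 higher and a median of -1.46. Cd55, which shields cells by dissolving C3 convertases, was at 257, 258 and 272 CPM against 1259.8, 1182 and 1324 CPM (log2 change -2.26, SE 0.065, adjusted p = 1.8e-24). The libraries of the groups lie far apart. The components C3 (175 ± 6.93 against 319 ± 21.4 CPM) and C4b (0.772 ± 0.228 against 8.80 ± 0.0593 CPM) were also lower, as was the protease Cfi (0.179 ± 0.132 against 3.18 ± 0.323 CPM). Clu, the most abundant member, differed little, at 1348 ± 18.7 against 1619 ± 53.5 CPM (log2 change -0.27, adjusted p = 3.6e-05).

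Ligands of natural killer and T cell receptors moved the other way, with 7 of 11 higher and 1 lower. Pvr, a ligand of TIGIT and DNAM-1, was at 197, 181 and 180.4 CPM in Ifngr1-KO and 58.7, 69.5 and 60.6 CPM in sgNTC libraries (log2 change 1.57, SE 0.065, adjusted p = 3.8e-20). Ulbp1, a ligand of NKG2D, was at 12.8, 11.4 and 12.5 CPM against 5.13, 6.80 and 5.85 CPM (log2 change 1.05, adjusted p = 1.9e-08). Cd276 and Lgals3 were higher by 0.45 and 0.66 on the log2 scale. Cd274, encoding PD-L1, was at 8.62 ± 0.398 against 9.61 ± 1.73 CPM and did not pass the test (log2 change -0.16, adjusted p = 0.67). Of 24 chemokines and cytokines tested, 9 were higher and 6 lower. Ccl2, which attracts monocytes, was at 7.41, 8.63 and 7.67 CPM against 2.04, 0.883 and 2.34 CPM, and Csf1, the macrophage growth factor, at 59.7, 55.9 and 59.0 CPM against 105, 109 and 105 CPM (log2 changes 2.17 and -0.87, adjusted p = 2.5e-07 and 1.7e-14). Spp1, encoding osteopontin, was at 3227 ± 174 against 2426 ± 87.5 CPM, and Cxcl12 at 175 ± 17.7 against 278 ± 19.2 CPM.

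All 13 mitochondrially encoded messenger RNAs were lower in Ifngr1-KO cells, with a median of -1.01. They encode the core subunits of respiratory complexes I, III, IV and V. Cytochrome b, mt-Cytb, was at 4082, 3799.7 and 3885 CPM against 7516, 8053 and 8212 CPM (log2 change -1.01, SE 0.066, adjusted p = 3.5e-14). The complex I subunit mt-Nd5 was at 3037, 2768 and 2795 CPM against 4649, 5489 and 5364 CPM (log2 change -0.85, adjusted p = 1.2e-08). The smallest difference was in mt-Co1, at 22806 ± 492 against 26329 ± 1942 CPM (log2 change -0.21, adjusted p = 0.015), whose call was lost in 5 of 6 leave-one-out fits, the exception being that without sgNTC replicate 1. The gene mt-Atp8 overlaps mt-Atp6, so its own count is uncertain. Of the nuclear genes that supply the same complexes, 14 of 36 were higher and 2 lower, with a median of 0.21. Uqcrc1, a complex III core subunit, was at 190.2 ± 2.63 against 131 ± 5.75 CPM (log2 change 0.54, adjusted p = 5.6e-10), and Cycs, cytochrome c, at 165 ± 0.859 against 106 ± 15.4 CPM. Of 24 mitochondrial ribosome genes, 16 were higher and 2 lower, for example Mrpl15 at 59.998 ± 0.697 against 42.7 ± 3.84 CPM. The 2 lower nuclear members were 0 or 1 without replicate 1 or 3 of either line, the 14 higher ones were 22 without a filter on low counts, and the 2 lower ribosome members were 0 or 1 without any 1 of the 6 libraries. When adherent, 21 of the 36 nuclear genes were higher and 2 lower (median 0.25). Of the 24 ribosome genes, 18 were then higher and 0 lower (median 0.27). Without adherent Ifngr1-KO replicate 3 the nuclear counts were 10 higher and 4 lower, and without adherent sgNTC replicate 1, 13 were higher. In adherent culture 11 of the 13 mitochondrially encoded messages were called lower (median -0.70). The interaction was called in 2 of the 13, in 4 when scaled by library totals and in 7 without a filter on low counts. The lower mitochondrial share of the Ifngr1-KO libraries given above rests on the same genes.

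To see which differences depended on detachment, the line difference was also taken in the adherent PBS libraries, where 43.9% of genes were called, and the difference between both line differences was tested. No library is shared between them. In adherent culture 2932 genes were called higher and 3489 lower, beside which the adherent counts of gene groups are to be read. Of 3584 genes higher in detached Ifngr1-KO cells, 1631 (45.5% of them, and 55.6% of the genes higher in adherent culture) were also higher when adherent, and 369 were lower. Of 3736 lower genes, 2099 (56.2%, and 60.2% of those lower in adherent culture) were also lower when adherent, and 182 were higher. The line difference differed between cultures in 4068 genes (27.8%), in 2426 of them (16.6% of genes tested) being more positive when detached and in 1642 (11.2%) more negative. Scaled by library totals without TMM, 42.0% rather than 59.6% of these calls were positive, with the median interaction shifted by -0.09. The depletion of dead cells was applied only to detached cultures, so handling cannot be told apart from attachment in the interaction.

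Some of the differences named so far were present in both cultures, while others departed between them. Complement genes gave 6 lower of 11 when adherent, with 2 positive and 3 negative interactions. The signalling, class I, ligand and chemokine lists also held called interactions, and Gas1 is among the genes with the most negative ones. For Ifngr1, Xist, Oas2, Pxdn and F13a1 the interaction did not pass the test (adjusted p = 0.25, 0.89, 0.19, 0.56 and 0.85). In adherent cells F13a1 was at 76.8 ± 4.26 CPM in Ifngr1-KO and 7.80 ± 1.57 CPM in sgNTC libraries, and Xist at 0.0971 ± 0.0423 against 223 ± 29.7 CPM. Antiviral genes gave 27 lower and 1 higher of 42 in adherent culture, and GTPases 10 lower of 17, with 6 positive and 4 negative interactions among the former and 0 among the latter. The 4 negative ones fell to 1 without detached Ifngr1-KO replicate 3 and to 2 without detached sgNTC replicate 3, adherent Ifngr1-KO replicate 3 or adherent sgNTC replicate 2 or 3. Among GTPases, 1 positive interaction was called without adherent Ifngr1-KO replicate 1 or 2 or adherent sgNTC replicate 3, and 1 negative without detached Ifngr1-KO replicate 1 or 2 or adherent Ifngr1-KO replicate 1. Without a filter on low counts, 3 positive and 1 negative were called. Several metabolic and growth lists differed between the cultures, as given next.

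**Figure D2:**
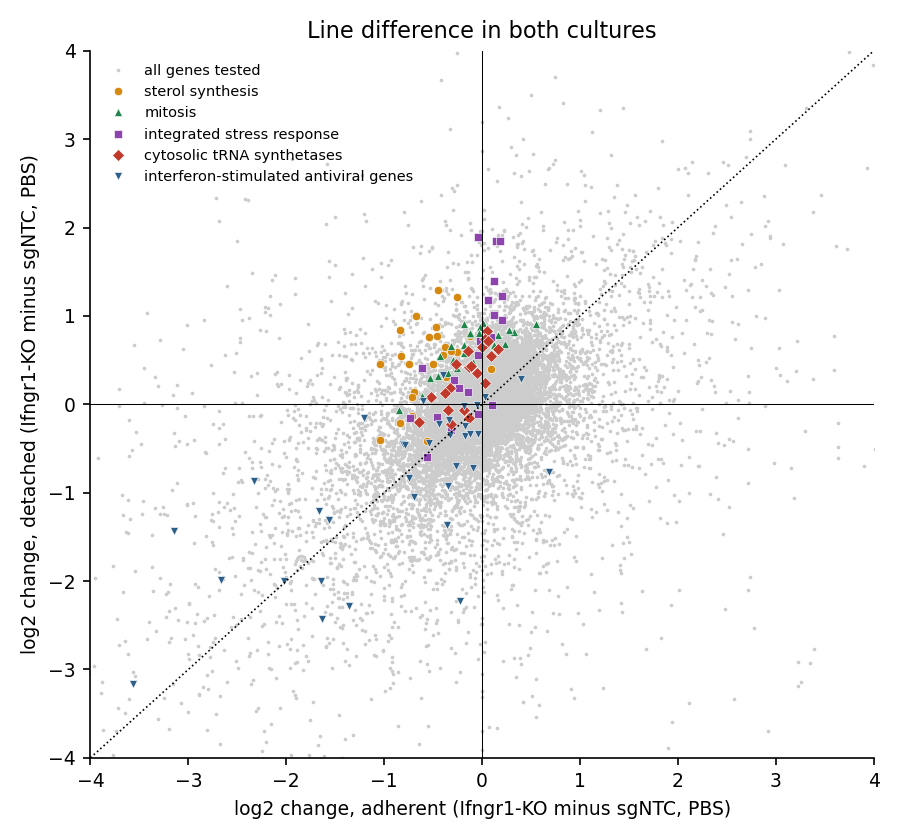
Each point is a gene tested, with the log2 change of Ifngr1-KO minus sgNTC in adherent PBS libraries on the x axis and in detached PBS libraries on the y axis, members of 5 lists in colour, and equality as a dotted line. Most sterol synthesis genes lie to the left of 0 and above 0, most mitosis and stress response genes above the line, and most antiviral genes below 0 in both cultures; 370 genes beyond 4 on either axis are not drawn.

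Sterol synthesis genes were higher in detached Ifngr1-KO cells and lower in adherent ones. Of 24 tested, 18 were higher and 1 lower when detached (median 0.55), against 0 higher and 21 lower when adherent (median -0.52), and the interaction was called in 21, all positive. Without detached Ifngr1-KO replicate 2, 2 were lower. Sqle, squalene epoxidase, was at 248, 259 and 266 CPM against 104, 113 and 115 CPM when detached (log2 change 1.22, SE 0.049, adjusted p = 1.7e-20). In adherent cells it was at 338 ± 8.38 against 404 ± 6.15 CPM (log2 change -0.26, adjusted p = 3.6e-05), which gave an interaction of 1.48 (SE 0.069, adjusted p = 2.4e-17). The order of the lines was thus reversed between cultures. Idi1, an isomerase of the isoprenoid steps, was at 36.9, 35.5 and 44.4 CPM against 18.8, 17.6 and 22.4 CPM, with an interaction of 1.67 (adjusted p = 3.4e-10). The exception was Hmgcs1, a synthase early in the pathway, at 421 ± 21.9 against 555 ± 26.0 CPM (log2 change -0.40, adjusted p = 1.2e-05). Fatty acid synthesis genes gave 11 higher and 1 lower of 15 when detached, 4 and 4 when adherent, and 9 positive and 1 negative interactions, with 3 lower when only the compared libraries were fitted. The desaturase Scd2 was at 6670.1, 6822 and 7001 CPM against 2585, 2987 and 2873 CPM (log2 change 1.28, SE 0.056, adjusted p = 2.1e-19), and Srebf1, the transcription factor of lipid synthesis, at 229.9 ± 7.47 against 138 ± 1.96 CPM. In fatty acid oxidation, 8 of 19 were lower and 4 higher (2 higher when scaled by library totals), with the gate enzyme Cpt1a at 156 ± 6.63 against 228 ± 4.22 CPM (log2 change -0.55, adjusted p = 2.6e-10).

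Genes of amino acid supply were also higher in detached Ifngr1-KO cells. Of 22 genes of the integrated stress response, in which the kinases of eIF2 raise the transcription factor ATF4, 13 were higher and 2 lower when detached (median 0.48), 2 higher and 6 lower when adherent, and 15 had a positive interaction. The 2 lower were 1 without replicate 2 of either line, and the 2 higher in adherent culture were 1 without Ifngr1-KO replicate 2 and 0 without Ifngr1-KO replicate 3 or sgNTC replicate 1. Slc7a11, the cystine and glutamate exchanger, was at 107, 102 and 103 CPM in Ifngr1-KO and 18.9, 24.9 and 24.6 CPM in sgNTC libraries (log2 change 2.20, SE 0.18, adjusted p = 1.6e-08). In adherent cells it was at 257 ± 26.1 against 315 ± 10.8 CPM, a difference that did not pass the test (adjusted p = 0.16), and the interaction was 2.49 (SE 0.24, adjusted p = 6.3e-07). Chac1, which degrades glutathione, was at 13.1, 13.02 and 15.9 CPM against 3.52, 4.55 and 3.63 CPM (log2 change 1.85, interaction 1.66, adjusted p = 3.8e-16 and 8.5e-12). Asns, asparagine synthetase, was at 160.0, 148 and 154 CPM against 62.3, 65.4 and 77.1 CPM (log2 change 1.18, interaction 1.11, adjusted p = 2.1e-17 and 3.1e-12). Phgdh, the first enzyme of serine synthesis, was at 291, 305 and 312 CPM against 129, 116 and 142 CPM, and Aldh18a1, which starts proline synthesis, at 127 ± 1.86 against 63.0 ± 4.54 CPM. Atf4 itself was at 288 ± 7.19 against 169.8 ± 8.32 CPM (log2 change 0.76, adjusted p = 7.5e-13), while its partner gene Ddit3 was lower, at 21.3 ± 3.30 against 26.1 ± 1.95 CPM (adjusted p = 0.0041), with libraries of the groups overlapping and the call lost without replicate 2 of either line. Several of these genes stood higher in both adherent lines than in either detached line, for example Asns at 539 ± 0.878 and 517 ± 12.9 CPM and Chac1 at 148 ± 8.56 and 130.5 ± 11.5 CPM.

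The promoters of Slc7a11 (chr3:50443564-50443863, - strand) and Chac1 (chr2:119350992-119351291, + strand) are printed because their transcripts gave the largest interactions among the genes just named. For each printed gene, here and above, the window is the first of its windows that holds a match, so one without a match could not appear. Matches to TGATGNAA on either strand, the core of the element that ATF4 complexes are known to bind, are in capitals, with the same window, build and direction as above.
Slc7a11: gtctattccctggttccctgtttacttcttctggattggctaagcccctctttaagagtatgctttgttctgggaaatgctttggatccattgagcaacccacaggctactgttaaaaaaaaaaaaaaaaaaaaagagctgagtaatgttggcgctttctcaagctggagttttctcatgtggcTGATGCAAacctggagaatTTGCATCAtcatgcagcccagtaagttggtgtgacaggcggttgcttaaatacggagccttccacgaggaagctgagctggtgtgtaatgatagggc
Chac1: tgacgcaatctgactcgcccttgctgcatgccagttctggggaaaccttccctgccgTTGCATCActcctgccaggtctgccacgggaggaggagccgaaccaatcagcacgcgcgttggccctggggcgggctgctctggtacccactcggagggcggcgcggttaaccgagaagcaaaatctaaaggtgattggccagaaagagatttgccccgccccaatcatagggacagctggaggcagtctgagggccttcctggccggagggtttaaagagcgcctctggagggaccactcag
Slc7a11 holds a pair of matches in opposite orientations, whose first bases lie at -66 and -47 from the start site, and the match in Chac1 begins at -193. The core occurred in 8 of 22 integrated stress response genes, 3 of 9 amino acid transporter genes and 5 of 12 tRNA synthetase genes with a window, and in 4.51% of all genes in the table. Factor binding was not measured.

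Amino acid transporters gave 9 higher and 2 lower of 12 when detached, 1 and 4 when adherent, and 10 positive and 1 negative interactions. Of the adherent counts, the 4 lower were 2 without Ifngr1-KO replicate 2 or 3 and the 1 higher was 2 without Ifngr1-KO replicate 3, while the negative interaction lost its call in each leave-one-out fit except those without replicate 3 of detached sgNTC, adherent Ifngr1-KO or adherent sgNTC cells. Slc7a1, a carrier of arginine and lysine, was at 244, 236 and 240.5 CPM against 94.4, 102 and 102 CPM (log2 change 1.27, SE 0.057, adjusted p = 3.9e-19). Slc7a5 and Slc3a2, which form the leucine transporter, were at 498 ± 12.1 against 241 ± 28.8 CPM and 493 ± 5.67 against 265 ± 24.9 CPM, with interactions of 1.20 (adjusted p = 3.3e-09) and 0.90 (adjusted p = 4.6e-09). Of 20 cytosolic tRNA synthetases, which charge tRNAs with amino acids, 13 were higher and 3 lower when detached, 1 higher and 10 lower when adherent, and 17 had a positive interaction. The 3 lower were 1 without Ifngr1-KO replicate 1 or sgNTC replicate 1 or 2, and the 1 higher in adherent culture was 0 without sgNTC replicate 1. Tars was at 306, 302 and 305 CPM against 178, 187 and 190.4 CPM (log2 change 0.72, interaction 0.66, adjusted p = 2.3e-14 and 2.8e-09). Gars and Iars were at 279.7 ± 14.2 against 178 ± 10.9 CPM and 245 ± 7.21 against 146 ± 15.5 CPM.

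Of 22 endoplasmic reticulum chaperone and unfolded protein response genes, 17 were higher and 2 lower when detached, with a median of 0.43. Hspa5, the main chaperone of that compartment, was at 1397, 1403 and 1529 CPM against 795, 769.6 and 784 CPM (log2 change 0.88, SE 0.051, adjusted p = 3.4e-16). It was far more abundant in the adherent libraries, at 9996 ± 281 and 9388 ± 159.7 CPM, where the lines did not differ by the test (adjusted p = 0.15), and the interaction was 0.79 (adjusted p = 1.6e-10). Creld2 was at 55.4 ± 0.937 against 29.4 ± 2.34 CPM and the lectin chaperone Canx at 1231 ± 27.6 against 796 ± 28.2 CPM. The interaction was called in 16 of the 22 genes, all positive. Derl3, a member of the degradation channel, stood apart: it was at 0.315 ± 0.126 against 34.4 ± 3.25 CPM when adherent and at 0.235, 0.0766 and 0.102 against 0.423, 0.542 and 0.604 CPM when detached, and its call in the detached libraries was lost without Ifngr1-KO replicate 2 or replicate 3 (log2 change -1.56 and -1.67), which left 1 lower member in the list.

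Glycolysis and hypoxia response genes gave 17 higher and 1 lower of 29 when detached (median 0.33), 2 higher and 13 lower when adherent, and 19 positive and 1 negative interactions. Without sgNTC replicate 2 or 3, 2 were lower when detached. Slc2a1, the glucose transporter, was at 897, 845 and 835 CPM against 375, 562 and 467 CPM (log2 change 0.88, adjusted p = 2.2e-04). Eno1, enolase, was at 2885 ± 107 against 2189 ± 69.8 CPM (log2 change 0.40, interaction 0.45, adjusted p = 1.1e-06 and 1.0e-04). Hif1a, the hypoxia-regulated transcription factor, was at 894 ± 7.53 against 653 ± 54.9 CPM. Pfkl, the liver form of phosphofructokinase, was the lower member, at 363 ± 16.6 against 533 ± 40.2 CPM, and lies on chromosome 10, while Pfkm, the muscle form, was higher at 122 ± 8.90 against 93.7 ± 1.11 CPM.

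**Figure D3:**
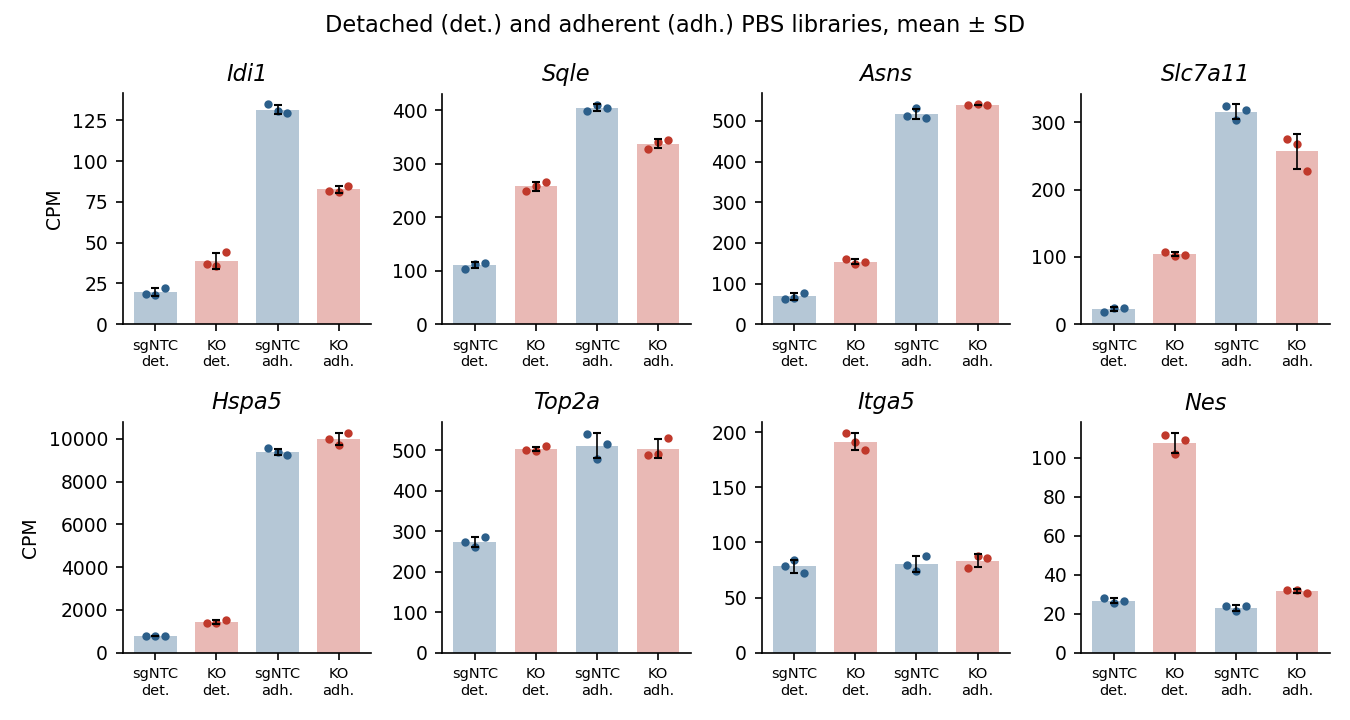
CPM of 8 genes in the detached and adherent PBS libraries of both lines, with a bar for the mean of 3 libraries, a line for the SD and a point for each library. Detached Ifngr1-KO bars exceed detached sgNTC bars in all 8, while the adherent bars of both lines differ by a smaller ratio. For Idi1, Sqle and Slc7a11 the adherent bars stand in the opposite order, and for Top2a they are nearly level.

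Mitosis genes were higher in detached Ifngr1-KO cells, 23 of 25 with 0 lower (median 0.67), whereas in adherent cells 4 were higher and 11 lower (7 lower without adherent sgNTC replicate 3). The interaction was positive in 24 of the 25. Mki67, the proliferation marker, was at 419, 408 and 403 CPM against 211, 212 and 232 CPM (log2 change 0.91, SE 0.066, adjusted p = 2.7e-13). Its adherent levels were 267 ± 8.92 against 304 ± 28.8 CPM, and the interaction was 1.09 (SE 0.093, adjusted p = 7.5e-11). Top2a, the topoisomerase that untangles sister chromatids, was at 501, 499 and 510.0 CPM against 273, 262 and 286 CPM (interaction 0.90, adjusted p = 3.9e-10). The transcription factor Foxm1, which drives late cell cycle genes, was at 89.8, 87.6 and 88.2 CPM against 49.8, 50.1 and 48.5 CPM, and the spindle protein gene Tpx2 at 212 ± 3.47 against 121 ± 9.14 CPM. DNA replication genes differed in both cultures: 22 of 27 were higher when detached (median 0.58) and 23 when adherent (median 0.34), with 9 positive and 1 negative interactions, the latter 0 without detached Ifngr1-KO replicate 1, adherent Ifngr1-KO replicate 3 or adherent sgNTC replicate 1. Mcm3, a subunit of the replicative helicase, was at 132, 138 and 137 CPM against 77.5, 81.1 and 86.6 CPM (log2 change 0.73, adjusted p = 1.2e-13), and Rrm2, ribonucleotide reductase, at 154, 153 and 161 CPM against 75.7, 76.1 and 86.1 CPM. Ccnd1, cyclin D1, was at 117, 121 and 121 CPM against 45.2, 42.2 and 49.3 CPM (log2 change 1.40, interaction 1.02, adjusted p = 1.8e-20 and 3.5e-12). Cdkn1a, the p21 inhibitor, was also higher, at 185, 193 and 181 CPM against 74.3, 119.9 and 104 CPM. Of 21 immediate early genes, 12 were lower and 4 higher when detached, and 10 lower and 1 higher when adherent. The 1 higher in adherent culture was 0 without Ifngr1-KO replicate 1 and 2 without Ifngr1-KO replicate 2. When detached, Zfp36, which destabilises cytokine messages, was at 24.4 ± 1.76 against 59.5 ± 2.73 CPM and Fosl1 at 9.25 ± 0.743 against 4.27 ± 1.11 CPM.

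Integrin genes, whose products bind matrix, were called 8 times in 13 in both cultures but with a different split. When detached 6 were higher and 2 lower, when adherent 3 and 5, and 6 had a positive interaction. Itga3, which pairs with beta 1 to bind laminin, was at 674, 662 and 678 CPM against 321, 307 and 287 CPM (log2 change 1.14, SE 0.059, adjusted p = 2.2e-17) and in the opposite order when adherent, at 338 ± 11.9 against 407 ± 13.3 CPM (interaction 1.41, adjusted p = 5.6e-15). Itga5, of the fibronectin receptor, was at 199, 191 and 184 CPM against 78.6, 84.4 and 72.1 CPM (interaction 1.23, adjusted p = 1.4e-11). Itgb3, a chain of vitronectin receptors, was at 606 ± 23.8 against 250.1 ± 14.5 CPM. Itgb4, the hemidesmosome chain, was at 9.89, 10.8 and 8.43 CPM against 1.19, 1.75 and 1.69 CPM (log2 change 2.66, adjusted p = 3.8e-13), and its interaction did not pass the test (adjusted p = 0.13). Actin cytoskeleton and SRF target genes gave 10 higher and 2 lower of 20, among them Flna, filamin A, at 1569.9 ± 8.74 against 949.9 ± 29.6 CPM (interaction 0.74, adjusted p = 9.7e-11) and Actn1, alpha-actinin, at 382 ± 4.55 against 222 ± 8.77 CPM. The 2 lower were 0 without Ifngr1-KO replicate 2 or 3 or any 1 of the sgNTC libraries.

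Matrix genes went both ways, 11 higher and 12 lower of 30. Thbs1, thrombospondin 1, was at 410.1, 384 and 402 CPM against 91.7, 97.5 and 98.7 CPM (log2 change 2.06, SE 0.070, adjusted p = 2.8e-22), and the proteoglycan Bgn at 462 ± 14.3 against 264 ± 11.6 CPM. Col1a1, the fibrillar collagen chain, was lower, at 5.11, 3.55 and 5.78 CPM against 21.2, 23.5 and 20.7 CPM (log2 change -2.18, adjusted p = 1.6e-13). Proteases of the matrix gave 9 higher and 5 lower of 19. Mmp10 was at 574, 564 and 540.2 CPM against 165, 172 and 209 CPM (log2 change 1.62, interaction 1.42, adjusted p = 2.7e-13 and 1.1e-08), and Plaur, the urokinase receptor, at 68.5 ± 3.83 against 27.9 ± 1.83 CPM. Mmp11 and Mmp15 were lower, at 40.7 ± 2.55 against 102 ± 5.18 CPM and 1.35 ± 0.0912 against 13.7 ± 1.59 CPM.

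Cell death regulators were lower more often than higher, 11 against 6 of 24 when detached and 12 against 1 when adherent. Without adherent Ifngr1-KO replicate 2, 2 were higher when adherent. Bmf, a BH3-only protein released when cells detach, was at 47.6, 51.2 and 55.2 CPM against 124, 122 and 108 CPM (log2 change -1.20, SE 0.085, adjusted p = 1.5e-13). Its level was lower in both adherent lines, at 10.6 ± 0.835 against 16.8 ± 2.53 CPM, and the interaction was -0.54 (adjusted p = 0.0017). Bcl2l1, encoding the survival protein BCL-XL, was at 120.4, 128 and 135 CPM against 84.4, 80.2 and 78.0 CPM (log2 change 0.66, interaction 0.84, adjusted p = 1.4e-08 and 3.8e-07). Casp6 was at 92.0 ± 2.15 against 159.6 ± 3.58 CPM and Cflar, the caspase-8 inhibitor, at 80.6 ± 2.17 against 119 ± 3.01 CPM. The libraries do not show cell survival, since dead cells had been removed. In the autophagy and lysosome list 9 of 27 were higher and 8 lower, with the initiating kinase Ulk1 at 67.1 ± 2.76 against 146 ± 6.65 CPM (log2 change -1.12, adjusted p = 3.2e-16) and Gabarapl1 at 100.1 ± 0.430 against 165 ± 6.88 CPM.

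The label of an ovarian cancer cell was held against markers. Krt19, Krt8, Krt18, Msln and Wt1, found in ovarian surface epithelium and its tumours, were between 299 and 2108 CPM in every library (366 ± 5.78 against 361 ± 11.4 CPM for Wt1), while Epcam had no count and Cdh1, Krt7 and Bnc1 were below 1 CPM. Upk3b, the remaining marker of this set, was also scarce, at 0.153 to 0.357 CPM in Ifngr1-KO and 1.26 to 2.69 CPM in sgNTC libraries. Epithelial and mesothelial genes gave 7 higher and 7 lower of 21. Upk1b, a uroplakin, was at 139, 138 and 139.7 CPM against 43.8, 39.6 and 41.7 CPM and Msln, mesothelin, at 571 ± 13.6 against 307 ± 6.68 CPM (log2 changes 1.73 and 0.90, adjusted p = 8.0e-24 and 1.7e-17). Muc16, which encodes CA125, was at 1.62, 1.30 and 1.43 CPM against 31.6, 30.3 and 25.7 CPM (log2 change -4.33, SE 0.30, adjusted p = 3.6e-10). The membrane protein Gpm6a and the desmosomal cadherin Dsc2 were lower as well, at 37.4 ± 1.78 against 221 ± 9.24 CPM and 21.4 ± 2.11 against 72.7 ± 2.99 CPM. Genes often used as stem cell markers included Cd44, the hyaluronan receptor, at 543, 552 and 563 CPM against 179, 192 and 195 CPM (interaction 0.98, adjusted p = 3.5e-12), and Nes, nestin, at 112, 102 and 109 CPM against 28.1, 25.4 and 26.8 CPM (interaction 1.56, adjusted p = 8.7e-14). Aldh1a1 was lower, at 25.9 ± 2.29 against 62.6 ± 6.55 CPM, and in all 5 of 9 such genes were higher and 2 lower.

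Most markers of other cells were scarce, but not Dcn, at 93.5 to 98.1 CPM in Ifngr1-KO and 96.2 to 98.8 CPM in sgNTC libraries, or Vwf, given below. Ptprc, C1qa, Cd3e, Lum, Hba-a1 and Hbb-bs had no count in any of the 6 libraries, and Adgre1 and Cdh5 had at most 4 counts over all of them. Summed over 15 macrophage markers the level was 29.9 to 34.2 CPM in Ifngr1-KO and 19.02 to 19.9 CPM in sgNTC libraries, 4 of the 15 were tested and 2 called, with Cd68, a lysosomal protein gene, at 20.9, 16.3 and 16.4 CPM against 6.91, 7.24 and 6.70 CPM. Over 13 lymphocyte markers it was 0.939 to 1.38 and 3.25 to 4.01 CPM, with 2 tested. Over 10 endothelial markers it was 86.0 to 91.5 and 48.2 to 52.9 CPM, with 5 tested, 1 higher and 2 lower. Of the 2 called macrophage markers, Csf1r lost its call without Ifngr1-KO replicate 3 or sgNTC replicate 2 or 3, as did Pecam1, of the 2 lower endothelial ones, without Ifngr1-KO replicate 2 or 3 or any 1 of the sgNTC libraries. Vwf, encoding von Willebrand factor, supplied most of it, at 72.7, 78.0 and 80.0 CPM against 22.7, 27.6 and 24.3 CPM (log2 change 1.63, adjusted p = 1.5e-09). Fibroblast and pericyte markers summed to 98.8 to 103 and 118 to 124 CPM over 10 genes, mainly Dcn, with 3 of 4 tested lower, and erythroid markers to 0.287 to 0.587 and 0.508 to 1.12 CPM over 7 genes.

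The difference between the lines was also uneven along the genome. The median log2 change was -0.45 over 701 genes of chromosome 10, of which 5.28% were higher and 58.8% lower, against 24.5% and 25.6% of all genes. It was -0.39 over 366 genes of chromosome 18, -0.25 over 758 genes of chromosome 8 and -0.23 over 884 genes of chromosome 1. Every other nuclear chromosome tested lay between -0.05 and 0.10. In adherent culture the same 4 medians were -0.51, -0.46, -0.26 and -0.25. All 13 windows of 10 Mb on chromosome 10, all 13 on chromosome 8, all 9 on chromosome 18 and 16 of 19 on chromosome 1 (windows with at least 10 genes) had a median below 0. On chromosome 10 the median ratio was 0.732, while Ifngr1, which lies there, was at 41.3% of the sgNTC level. DNA copy number was not measured.

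**Figure D4:**
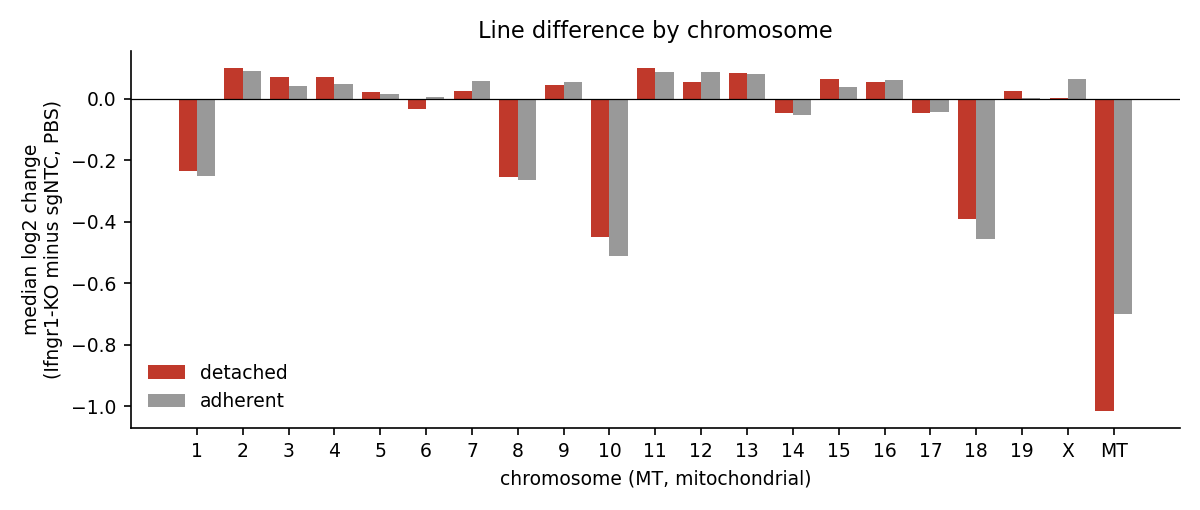
Median log2 change of Ifngr1-KO minus sgNTC over the genes tested on each chromosome, in detached (first bar) and adherent (second bar) PBS libraries. Chromosomes 1, 8, 10 and 18 and the mitochondrial genome lie below -0.2 in both cultures, and no other chromosome does.

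**Figure D5:**
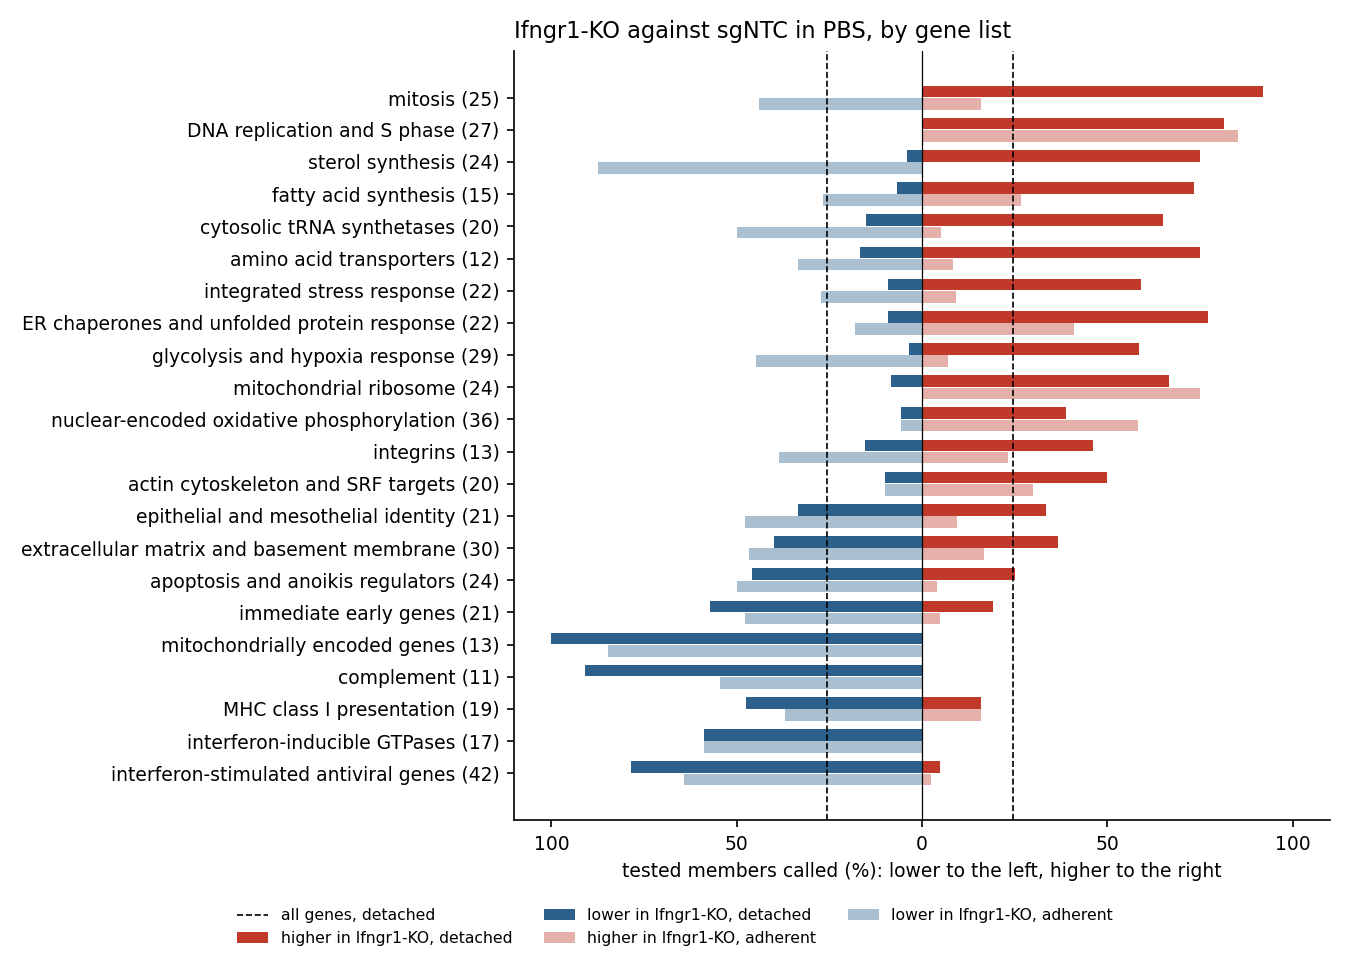
Share of the tested members of 22 gene lists (number tested in brackets) called higher (right) or lower (left) in Ifngr1-KO cells, in detached (dark) and adherent (light) PBS libraries, with dashed lines at the shares of all genes in the detached libraries (24.5% and 25.6%). Mitosis, sterol synthesis, amino acid and glycolysis lists extend to the right when detached and mainly to the left when adherent, whereas interferon, complement and mitochondrially encoded lists extend to the left in both.

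The genes whose line difference departed most from adherent culture, among those of at least 10 CPM in 1 of the 4 groups, were read from the same interaction. Muc16 had the difference lessened by detachment, since Ifngr1-KO cells held 0.0738 ± 0.0669 CPM when adherent and 1.45 ± 0.159 CPM when detached, against 17.3 ± 1.62 and 29.2 ± 3.08 CPM in sgNTC (interaction 3.47, adjusted p = 0.002). Krt15, a keratin gene, was at 0.690 ± 0.153 against 6.16 ± 1.25 CPM when adherent and 10.01 ± 0.933 against 12.5 ± 0.616 CPM when detached, where the difference did not pass the test (log2 change -0.32, adjusted p = 0.069), with an interaction of 2.82 (adjusted p = 1.3e-10). Tlr7, a sensor of single-stranded RNA, was at 2.45 ± 0.307 against 30.0 ± 2.69 CPM when adherent and 1.86 ± 0.394 against 3.93 ± 0.643 CPM when detached. In the other direction, Matn2, a matrix protein gene, was at 0.703 ± 0.278 against 2.28 ± 0.142 CPM when adherent and 0.936 ± 0.269 against 16.4 ± 1.55 CPM when detached (interaction -2.42, adjusted p = 2.2e-06). Eda2r, a receptor of the tumour necrosis factor family, was at 1.45 ± 0.567 against 18.3 ± 1.94 CPM when adherent and had no count in the detached Ifngr1-KO libraries against 1.53 ± 0.473 CPM in detached sgNTC. Pnliprp1, a pancreatic lipase relative, was at 15.7, 12.0 and 11.3 CPM in detached sgNTC libraries and had 0 counts in all 3 adherent sgNTC libraries, so no fold between adherent lines is given.

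With IFN-gamma added, the detached lines differed in 8019 genes (54.8%), and 84.2% of the genes higher and 82.4% of the genes lower with PBS were called the same way, which is 74.7% and 77.3% of the calls made with IFN-gamma. The line difference with PBS differed from that with IFN-gamma in 195 genes (1.33%), 116 in the positive and 79 in the negative direction (59.5% positive, or 73.3% when scaled by library totals). The number fell to 75 without Ifngr1-KO PBS replicate 1 and to 78 without sgNTC PBS replicate 2. Interferon genes made up a visible part: 21 of 42 antiviral genes, 10 of 17 GTPases, 7 of 19 class I genes and 5 of 20 signalling genes were called, and in all of them the difference was more negative with IFN-gamma. The GTPase count fell to 6 without Ifngr1-KO PBS replicate 1. Irf1 had a log2 change of 0.21 with PBS and -1.24 with IFN-gamma (adjusted p of the difference = 1.8e-07). Tap1 had -3.17 and -5.47 (adjusted p = 0.042), and Cd274 -0.16 and -1.82 (adjusted p = 0.042). Tap1 and Cd274 each lost this call in 10 of 12 leave-one-out fits (adjusted p up to 0.162 and 0.0991). Tap1 kept it without Ifngr1-KO PBS replicate 2 or sgNTC IFN-gamma replicate 2, and Cd274 without Ifngr1-KO or sgNTC IFN-gamma replicate 2. For Oas2, by contrast, the deficit with PBS (-4.67) and with IFN-gamma (-5.39) did not differ by the test (adjusted p = 0.2). Of 29 glycolysis and hypoxia response genes 6 were called, Gpi1, Pfkl, Aldoa, Pgk1, Eno1 and Pkm, all in the other direction, and 2 or 3 were called without Ifngr1-KO PBS replicate 1 or 2, sgNTC PBS replicate 2 or sgNTC IFN-gamma replicate 2. No member of the sterol, mitosis or DNA replication lists was called in this interaction, and 1 sterol gene was without Ifngr1-KO IFN-gamma replicate 2.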

How the data were processed

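Poly-A RNA of the 24 libraries was sequenced, and the authors deposited 1 table of raw read counts per library, made per the file headers with featureCounts of Subread 2.1.1 over exons, in paired mode without strand, on a mouse gene model to which 9 transgenes had been added. Per the submitters' processing notes, Trimmomatic, HISAT2, SAMtools and DESeq2 were also used, with mm10/GRCm38 (versions not given in the sources used here). Without strand, antisense partners and overlapping genes share counts, and each mate of a pair was counted.

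From these counts, genes passing edgeR's filterByExpr (minimum count 10) in the 8 groups were kept, 14622 of 31062 features. A single model of 8 group means over all 24 libraries, with TMM factors and 16 residual degrees of freedom, was fitted with edgeR 4.0.16 (quasi-likelihood, robust) in R 4.3.3, and p-values were adjusted over all genes by the Benjamini-Hochberg method, with a threshold of 0.05. The line difference was taken in detached PBS, adherent PBS and detached IFN-gamma libraries, and differences between those differences were tested in the same model. The script was tested on simulated data. CPM values use TMM-scaled library sizes. Groups with no count were set against a floor of 3 counts over their libraries.

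The comparison, the 48 gene lists and the naming rule were chosen with earlier results of these data known. The rule took, in each direction, the 10 largest changes among called genes of at least 10 CPM without overlap between libraries, the 5 largest interactions each way, up to 4 called members per list by adjusted p, and partners of named genes as values. Ifit3, Oas1a, Atf4, Ddit3, Hmgcs1, Samhd1, Ifi204, Clu, C3, Irf1, Irgm1, Wt1, Msln, Slc2a1, Impact, Plagl1, mt-Co1, Gpi1, Aldoa, Pgk1 and Pkm were chosen after their values were seen. Alternatives were another scaling, no filter, fits on the compared groups only, DESeq2 1.42.0, halved counts, a replicate block and leaving out each library. Some genes are not reported here. Promoter windows came from RefSeq on GRCm38.p6.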

Additional observations from a re-analysis of the deposited data

Results flagged for a closer look

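The line difference differed between detached and adherent PBS culture, by the interaction test of edgeR, in 4068 of 14622 genes. Genes with the most positive interaction (detached minus adherent, log2) were Derl3 at 4.85, Muc16 at 3.47, Krt15 at 2.82, Tlr7 at 2.53 and Slc7a11 at 2.49. For Derl3, Muc16 and Tlr7 the adherent Ifngr1-KO deficit was larger than the detached one. Krt15 was lower in adherent Ifngr1-KO cells, and its detached difference did not pass the test (log2 change -0.32, adjusted p = 0.069), whereas Slc7a11 was higher in detached Ifngr1-KO cells. The most negative were Pnliprp1 at -10.57, Gas1 at -6.88, Eda2r at -5.38, mt-Atp8 at -2.55 and Matn2 at -2.42. Pnliprp1 had no count in adherent sgNTC libraries, and Gas1 and Eda2r had none in detached Ifngr1-KO libraries, so these 3 fitted values depend on the prior count and give no size. The gene mt-Atp8 overlaps mt-Atp6, and reads of both cannot be separated by this counting. The line difference also differed between PBS and IFN-gamma in detached culture in 195 of 14622 genes.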

How the results depend on the processing

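The number of genes called in detached PBS libraries (7320) ranged from 6669 to 7655 over all alternatives, and leaving out each library gave 6669 to 6930. Leave-one-out counts were 5556 to 5969 for adherent PBS, 7454 to 7737 for IFN-gamma, 3516 to 3999 for the interaction with culture and 75 to 280 for the interaction with IFN-gamma. The last count (195) was 467 with DESeq2 and 524 without a filter on low counts (42.0% positive against 59.5%), 75 without Ifngr1-KO PBS replicate 1 and 78 without sgNTC PBS replicate 2, and the cause was not tested. With the replicate block, counts were 7328, 6385, 7984, 4064 and 207 in the same order, so the pairing changed no count by over 1.5 times. Replicate numbers did not pair the detached PBS libraries, where deviations from the group means of same-numbered libraries correlated at 0.00903, 0.00453 and 0.000316, and other groups were not checked. Of 201 named genes called in detached PBS libraries, 196 kept their call under every alternative run and none reversed, while the other named gene, Krt15, was not called. The 5 that lost it, each in leave-one-out fits, were Derl3, Grb10, Csf1r, Pecam1 and Cspg4. Most named genes were picked for large changes or small adjusted p in these same data. Their kept calls therefore do not stand for those of other genes. Of 10 named interactions, 1 lost its call, Pnliprp1 (-6.91 without adherent Ifngr1-KO PBS replicate 3). Of 3072 counts by gene list, 2845 stayed within 1.5 times. Each genotype is 1 line, and no alternative bears on that. Genes with few counts in a group have fitted changes that depth limits.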

Other observations

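Of all genes tested 24.5% were higher and 25.6% lower, beside which the counts of the signalling lists here are to be read. Wnt7b, a WNT ligand, was at 9.21, 7.89 and 8.10 CPM in detached Ifngr1-KO and 0.197, 0.501 and 0.604 CPM in detached sgNTC libraries (log2 change 4.34, adjusted p = 6.5e-16, edgeR), and Wnt4 at 26.2 ± 1.71 against 9.09 ± 1.54 CPM. Over 25 genes of WNT, NOTCH and TGF-beta or BMP signalling, 7 were higher and 9 lower. Among growth factors and receptors, 7 of 23 were higher and 8 lower, with Igf1 at 4.49, 3.397 and 3.79 CPM against 1.09, 0.762 and 0.894 CPM (log2 change 2.07, adjusted p = 9.1e-11) and the receptor Fgfr2 at 19.8 ± 2.65 against 5.40 ± 0.711 CPM. Ccn2, a YAP target, was lower (39.0 ± 3.06 against 70.7 ± 7.26 CPM) while Ankrd1, another, was higher (41.8 ± 0.782 against 30.2 ± 1.48 CPM).

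In the list of NRF2 targets, iron and glutathione genes, 14 of 29 were higher and 7 lower, the latter 4 without Ifngr1-KO replicate 1 or 3 and 3 without sgNTC replicate 2. Gsta1, a glutathione transferase, was at 20.6, 23.2 and 24.0 CPM against 4.33, 5.62 and 5.83 CPM (log2 change 2.11, adjusted p = 5.0e-13), and Nfe2l2, which encodes NRF2, at 315 ± 6.38 against 214 ± 6.69 CPM. Of 17 p53 pathway genes, 8 were higher and 4 lower in these p53-deficient lines, with Sesn1 at 24.9 ± 1.69 against 54.0 ± 2.94 CPM and Ccng1 at 129.7 ± 1.06 against 89.2 ± 6.92 CPM. The inserted mCherry was at 216, 218 and 205 CPM against 150, 152 and 146 CPM (log2 change 0.51, adjusted p = 7.2e-08).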
